A study of Danio rerio with 18 samples.

Results

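The antioxidant enzyme genes gpx8, gpx7, prdx4, gpx1a, gpx4a, gpx4b, prdx1, prdx2, cat and sod1 were followed in eggs and ovarian follicles of wild-type and sinhcaf-/- zebrafish. The 10 genes were picked by name from the 25432 genes of the deposited expression table, each matched a single row, and 9 of them passed the filter on low values. The choice started from gpx8, which had come up among the largest rises in mutant eggs. Egg values of the 10 genes in mutants against wild type are therefore a description, and no result is read from their tests. The other genes were added as members of the glutathione peroxidase, peroxiredoxin, catalase and superoxide dismutase families.

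RNA-seq libraries came from mature eggs and from ovarian follicles of a stage called FG, an abbreviation that the labels leave unexplained. The groups were 5 egg libraries and 4 FG follicle libraries of wild-type fish, and 5 egg and 4 FG follicle libraries of fish with the genotype sinhcaf-/-, 18 in all. Eggs or follicles of 1 female were pooled for each library, and the kind of sinhcaf allele, the strain and the age of the fish are not given in the sources used here. In mammals the SINHCAF protein belongs to SIN3 complexes, which carry histone deacetylases to genes.

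Hydrogen peroxide arises in cells from mitochondrial respiration, from peroxisomal oxidases and from the making of disulfide bonds in the endoplasmic reticulum. Superoxide dismutases turn superoxide into peroxide, and catalase, peroxiredoxins and glutathione peroxidases then break peroxide down. The products of gpx8, gpx7 and prdx4 work in the endoplasmic reticulum in mammals, where they pass oxidizing power on to protein disulfide isomerases. The products of gpx4a and gpx4b are homologous to mammalian GPX4, which reduces lipid peroxides in membranes and guards against ferroptosis.

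Values are FPKM, fragments scaled to the length of the gene model and to the mapped total of the library, so levels of different genes can be set side by side. Log2 differences are of log2(FPKM + 1) from 1 linear model (limma) over 10547 genes, and a gene is said to pass, rise or fall at a Benjamini-Hochberg adjusted p under 0.05. Sequencing depth is unknown because the table holds FPKM alone, and precision is judged from the spread between fish. Summed FPKM ran from 375178 to 464199 in egg libraries and from 287120 to 340960 in FG follicle libraries. Transcripts of the mitochondrial genome took 35.5% ± 1.97 of that sum in wild-type eggs and 43.4% ± 5.81 in mutant eggs (SD, n = 5 each). In FG follicles they took 15.3% ± 1.67 in wild type and 10.5% ± 3.0 in mutants (SD, n = 4 each). All other FPKM values share in such shifts. The sinhcaf transcript stood at 2.14 ± 1.12 FPKM in wild-type and 0.607 ± 0.315 FPKM in mutant FG follicles (SD, n = 4 each), where 1 wild-type library, number 4 with 0.615 FPKM, sat inside the mutant range. The gene passed there (log2 -0.90, limma adjusted p = 0.0115). In eggs it stood at 0.726 ± 0.509 FPKM in wild type and 0.248 ± 0.0651 FPKM in mutants (SD, n = 5 each), with no overlap, and did not pass (adjusted p = 0.210). Of 15 oocyte and egg markers, 14 passed the filter, and the list summed to between 2888 and 4656 FPKM in every library, with mos at under 1 FPKM throughout. Single oocyte markers differed between genotypes. In FG follicles gdf9 (log2 1.06), zp3b (1.27) and zp2.1 (1.09) rose and dazl (-0.73), ca15b (-0.56) and org (-0.78) fell, and in eggs zp3b (0.87), zp2.1 (0.69) and cldnd (0.81) rose and org (-0.50) fell.

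**Figure D1:**
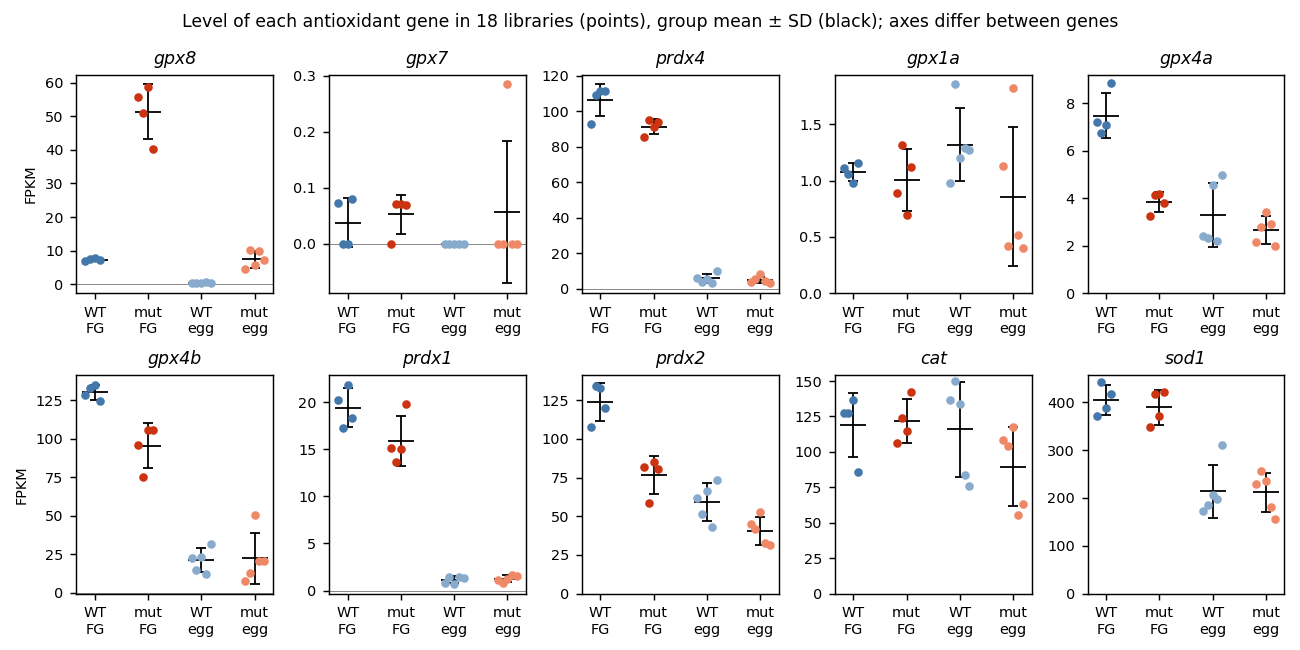
FPKM of each of the 10 antioxidant genes (vertical axes, which differ between genes) in wild-type and mutant (mut) FG follicle and egg libraries; points are libraries and black bars the group mean ± SD. In FG follicles gpx8 is higher in all 4 mutant libraries than in all wild-type ones, while gpx4a, gpx4b and prdx2 are lower in all of them, and gpx7 never passes 0.284 FPKM.

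The 10 genes differed widely in level. The gene sod1, which encodes the cytosolic copper and zinc superoxide dismutase, had the highest mean level of the 10 in each of the 4 groups, from 212 FPKM in mutant eggs to 405 FPKM in wild-type FG follicles. In wild-type FG follicles the genes gpx4b (130.04 FPKM), prdx2 (124 FPKM), cat (119 FPKM) and prdx4 (106 FPKM) followed. There, prdx1 stood at 19.4 FPKM, gpx4a at 7.47 FPKM, gpx8 at 7.38 FPKM and gpx1a at 1.07 FPKM. At the bottom was gpx7, listed at 0 in all 5 wild-type egg libraries, in 4 of 5 mutant egg libraries, in 2 of 4 wild-type and in 1 of 4 mutant FG follicle libraries, and it was not tested. In mutant FG follicles gpx8 moved from place 8 to place 6 of 10, past gpx4a and prdx1.

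The comparison of FG follicles asked how the transcripts of mutant follicles differ from those of wild-type ones. There gpx8 was 6.96 times as abundant in mutants, while gpx4a fell to 0.514 and prdx2 to 0.618 of the wild-type mean. The other 6 tested genes did not pass. In all, 1 of 9 tested members rose, where 10.1% of all genes tested rose, and 2 fell, where 13.4% of all genes fell. Together 3 of 9 passed, against 23.5% of all genes. Of all calls 42.9% were higher in mutants, and 59.9% were when FPKM were rescaled to TPM, while gpx8 stayed higher and gpx4a and prdx2 lower. The median member had a log2 difference of -0.21, against -0.05 for all genes tested.

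In the endoplasmic reticulum group, gpx8 (ENSDARG00000013302) stood at 7.00, 7.48, 7.73 and 7.29 FPKM in wild-type FG follicle libraries 1 to 4. In mutant libraries 1 to 4 it stood at 55.6, 51.0, 58.6 and 40.2 FPKM. All mutant libraries were far above all wild-type ones, and the wild-type libraries lay close together. The means were 7.38 ± 0.307 and 51.4 ± 8.06 FPKM (SD, n = 4 each). The log2 difference was 2.63 (SE 0.19, limma adjusted p = 7.28e-09), and gpx8 passed in each of 30 alternative settings, with differences from 2.56 to 3.35.

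The other abundant peroxidase of that compartment did not pass. The gene prdx4 (ENSDARG00000069013), whose product is the peroxiredoxin of the endoplasmic reticulum, stood at 93.2, 109, 111 and 111 FPKM in wild-type FG follicles. Mutant libraries had 85.5, 95.1, 91.0 and 94.1 FPKM, so that only wild-type library 1 lay within the mutant range. The log2 difference was -0.21, with a 95% interval of -0.72 to 0.30 (limma adjusted p = 0.582). Of the summed FPKM of gpx8, gpx7 and prdx4, gpx8 made up 6.50% ± 0.356 in wild-type and 35.9% ± 4.45 in mutant FG follicles (SD, n = 4 each). The sum itself was 114 ± 9.06 FPKM in wild type and 143 ± 6.66 FPKM in mutants. The 2 groups did not overlap in that sum, which ran from 100.2 to 119 FPKM in wild type and from 134 to 150 FPKM in mutants.

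**Figure D2:**
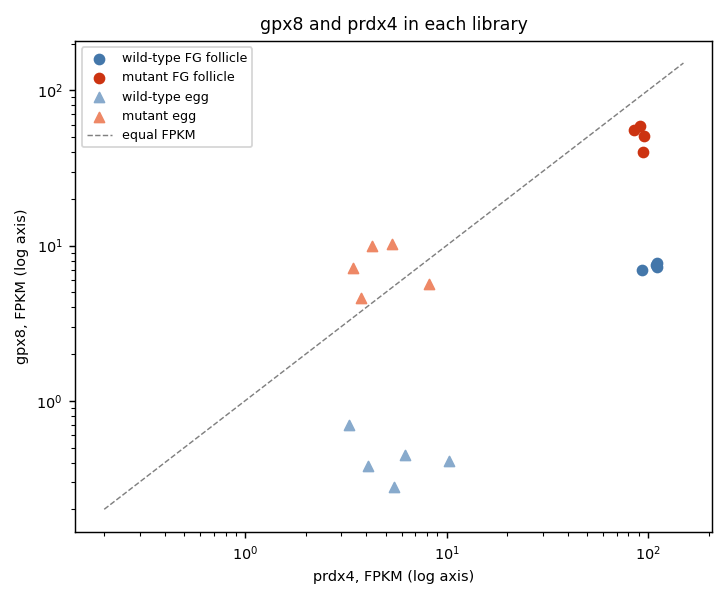
FPKM of gpx8 (vertical, log axis) against FPKM of prdx4 (horizontal, log axis) in each of 18 libraries, with a dashed line at equal values. Mutant libraries lie above wild-type ones of the same stage on the gpx8 axis while the prdx4 ranges overlap between genotypes, and 4 of 5 mutant egg libraries lie above the line.

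Among the other glutathione peroxidases, gpx4a (ENSDARG00000068478) stood at 7.21, 6.75, 7.07 and 8.86 FPKM in wild-type FG follicles and at 3.26, 4.12, 4.19 and 3.81 FPKM in mutant ones. Every mutant library lay below every wild-type one. The log2 difference was -0.81 (SE 0.20, limma adjusted p = 0.00616), and gpx4a passed in all 30 alternative settings, with an adjusted p of at most 0.0349. Its paralog gpx4b (ENSDARG00000076836) was much more abundant, with 128, 133, 135 and 124 FPKM in wild-type and 95.7, 75.2, 106 and 106 FPKM in mutant FG follicles. Here too the groups did not overlap, but the log2 difference of -0.45 did not pass in the model of all libraries (95% interval -1.23 to 0.33, adjusted p = 0.418). That model takes its spread from eggs as well, where gpx4b ran from 7.82 to 50.4 FPKM, and with FG follicle libraries alone the adjusted p was 0.0187. The gene gpx1a (ENSDARG00000018146), for a cytosolic glutathione peroxidase, stood at 1.07 ± 0.0767 FPKM in wild type and 1.0 ± 0.272 FPKM in mutants (log2 -0.06, 95% interval -0.45 to 0.33, adjusted p = 0.861). The sources used here do not say how reads that match several genes were assigned, which leaves the pairs gpx4a and gpx4b, and prdx1 and prdx2, uncertain to that extent.

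The cytosolic peroxiredoxins are paralogs that reduce peroxide with electrons from thioredoxin. The level of prdx2 (ENSDARG00000025350) was 108, 134, 133 and 120.2 FPKM in wild-type and 81.5, 58.4, 85.2 and 80.8 FPKM in mutant FG follicles. All mutant libraries lay below all wild-type ones, and mutant library 2 was the lowest. The log2 difference was -0.70 (SE 0.18, limma adjusted p = 0.00906), and it ended as a call with median-of-ratios scaling alone among 30 alternative settings (adjusted p = 0.0741, difference -0.67). The level of prdx1 (ENSDARG00000058734) was 19.4 ± 2.04 FPKM in wild type and 15.9 ± 2.68 FPKM in mutants, and the groups overlapped (log2 -0.28, 95% interval -0.62 to 0.06, adjusted p = 0.234). With 4 of 9 tested members the FG follicle groups did not overlap, where 29% of all genes tested did not.

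Neither catalase nor sod1 passed in FG follicles. Catalase (cat, ENSDARG00000104702), the peroxisomal enzyme that splits peroxide into water and oxygen, stood at 127, 127, 136 and 85.7 FPKM in wild type and at 106, 124, 115 and 142 FPKM in mutants. Wild-type library 4 was the lowest, and the ranges overlapped (log2 0.04, 95% interval -0.48 to 0.57, adjusted p = 0.922). For sod1 (ENSDARG00000043848) the means were 405 ± 31.8 FPKM in wild type and 389 ± 35.8 FPKM in mutants (SD, n = 4 each). Its log2 difference was -0.06 with a 95% interval of -0.41 to 0.30 (adjusted p = 0.848).

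**Figure D3:**
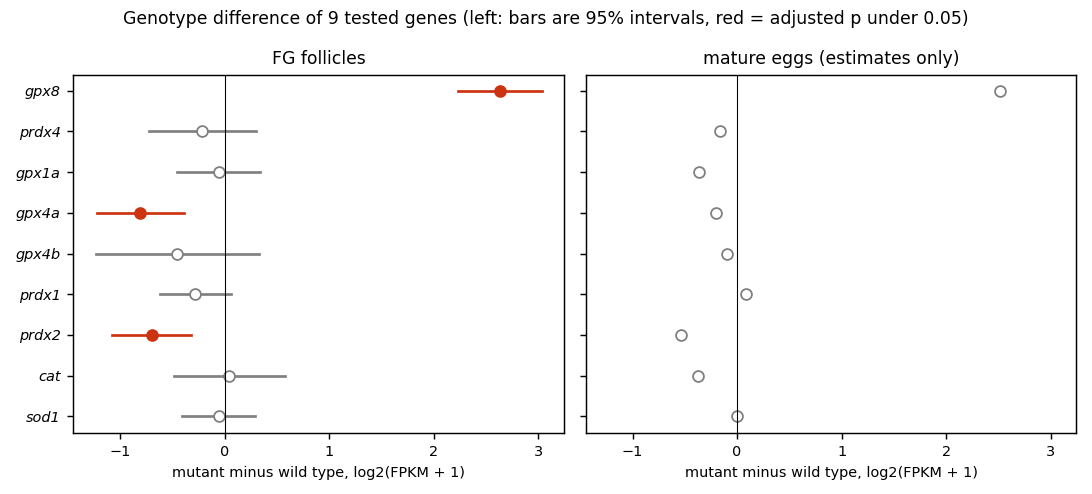
Difference between mutant and wild type in log2(FPKM + 1) (horizontal axis) for the 9 tested genes, in FG follicles on the left with 95% intervals and in eggs on the right as estimates only; red on the left marks an adjusted p under 0.05. In FG follicles gpx8 is at 2.63, gpx4a at -0.81 and prdx2 at -0.70, and the intervals of the other 6 genes include 0.

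Some granulosa markers were higher in mutant FG follicles. The 15 granulosa markers summed to between 46.9 and 90.1 FPKM in wild-type and between 113 and 209 FPKM in mutant FG follicles, and 4 of 7 tested markers rose and none fell, where 10.1% of all genes rose. The 4 were inha, hsd17b1, nr5a1a and foxl2b, while lhcgr, inhbaa and cyp11a1 did not pass. Of the 15, amh, foxl2a, cyp19a1a, fshr, inhbab and fsta were under 1 FPKM in all FG follicle libraries. The 13 leukocyte markers summed to 3.83 to 4.62 FPKM in wild type and 4.18 to 23.0 FPKM in mutants, and 2 of 3 tested markers rose. They were cd74a and cd74b, both with overlap between genotypes, while cxcr4b did not pass. Among the 13, ptprc, coro1a, lcp1, mpeg1.1, spi1a, mpx, lyz, csf1ra and laptm5 were under 1 FPKM in all FG follicle libraries. Erythrocyte markers summed to 3.99 to 7.99 FPKM in wild type and 3.13 to 12.8 FPKM in mutants, and 1 of 2 tested rose. The 14 markers of theca and stroma summed to 81.9 to 113 FPKM and 67.7 to 108 FPKM. Of these, 1 of 7 tested fell and none rose, where 13.4% of all genes fell. It was fn1a (log2 -0.38), which was under 1 FPKM in all FG follicle libraries. The 11 endothelial markers summed to at most 5.81 FPKM and the 12 liver markers to at most 1.76 FPKM in FG follicles. The part of these cells in the differences of gpx8, gpx4a and prdx2 was not tested. In bulk libraries like these, fewer cells of a type and less RNA per cell cannot be told apart.

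In eggs, the comparison through which gpx8 was picked, the gene stood at 0.450, 0.378, 0.277, 0.697 and 0.408 FPKM in wild-type libraries 1 to 5. In mutant libraries 1 to 5 it stood at 4.61, 10.3, 5.64, 9.91 and 7.20 FPKM. Again the groups were far apart, with means of 0.442 ± 0.156 and 7.53 ± 2.52 FPKM (SD, n = 5 each). The ratio of the means was 17.0 in eggs and 6.96 in FG follicles, while the log2(FPKM + 1) differences were 2.52 and 2.63. The difference between both stages in the genotype effect was thus -0.11 with a pseudocount of 1, and it turned to 0.34 with a pseudocount of 0.5 and to 1.02 with 0.1, so its sign depends on the pseudocount. With quantile normalization it was -0.85. Mutant eggs and wild-type FG follicles had like levels, 7.53 and 7.38 FPKM, and their ranges overlapped.

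Of the 9 tested members, 1 was higher and 1 lower in mutant eggs at the threshold, where 7.35% and 7.71% of all genes were. Together that is 2 of 9, against 15.1% of all genes. Nothing is read from these counts, since this contrast served the choice. The lower one, prdx2, stood at 61.7, 51.3, 66.5, 42.9 and 73.2 FPKM in wild-type and at 45.0, 41.5, 52.8, 32.5 and 31.2 FPKM in mutant eggs, and the groups overlapped. Of the 9 tested genes, gpx8 was the only one without overlap between the egg groups, against 11.1% of all genes. For gpx8 that too follows from the choice and is not read as a result. Catalase was at 136, 150, 134, 83.6 and 75.8 FPKM in wild-type and at 108, 104, 117, 55.8 and 62.9 FPKM in mutant eggs. Libraries 4 and 5 were lower than libraries 1 to 3 in both genotypes, and within either set of libraries the mutant values lay below the wild-type ones. The log2 difference of cat was -0.38 over all eggs, -0.35 in libraries 1 to 3 and -0.42 in libraries 4 and 5. That split was made after the values had been seen, and nothing is read from it. Over all eggs the 95% interval of cat was -0.85 to 0.10, and it was past the threshold in 0 of 32 alternative settings. The level of sod1 was 214 ± 55.3 FPKM in wild-type and 212 ± 41.2 FPKM in mutant eggs, that of gpx4b 21.0 ± 7.72 and 22.4 ± 16.5 FPKM, and that of prdx4 5.87 ± 2.73 and 5.02 ± 1.93 FPKM (SD, n = 5 each). For gpx4a the levels were 3.31 ± 1.35 and 2.65 ± 0.590 FPKM, for gpx1a 1.32 ± 0.326 and 0.858 ± 0.614 FPKM, and for prdx1 1.15 ± 0.342 and 1.28 ± 0.361 FPKM. These 6 genes overlapped between the egg groups. As a share of the summed FPKM of gpx8, gpx7 and prdx4, gpx8 made up 8.28% ± 5.50 in wild-type and 59.6% ± 12.4 in mutant eggs. Granulosa markers summed to 27.6 to 37.1 FPKM in wild-type and 37.1 to 135 FPKM in mutant eggs, and 1 of 7 tested rose, cyp11a1, which was the only one of the 15 to reach 1 FPKM in any egg library. Leukocyte markers summed to 1.22 to 2.48 FPKM in wild-type and 5.68 to 11.8 FPKM in mutant eggs. Of those 13, cxcr4b was the only one to reach 1 FPKM in any egg library, and 1 of 3 tested rose, again cxcr4b (log2 2.1, limma adjusted p = 2.16e-06). The 14 theca and stroma markers summed to 63.2 to 100 FPKM in wild-type and 63.3 to 87.3 FPKM in mutant eggs. Of 7 tested, none rose and fn1a fell (log2 -1.0). Since fn1a reached 1 FPKM only in wild-type egg libraries, it met the filter through the group where it was high. Its fall is therefore a description. Endothelial markers summed to 4.82 to 7.57 FPKM and 6.39 to 9.92 FPKM, and the 1 tested, cldn5b, rose. Erythrocyte and liver markers summed to at most 0.845 FPKM in any egg library. Whether such cells have a part in the egg values was not tested.

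No member passed in the test of whether the genotype effect differs between eggs and FG follicles, where 6.95% of all genes did. The egg part of this test is the contrast through which gpx8 was picked, so for gpx8 it is a description only. By limma the count was 0 of 9 after adjustment and 1 of 9 at an unadjusted p under 0.05, and no other tool was run. The member at an unadjusted p under 0.05 was gpx4a, with a log2 difference of -0.81 in FG follicles and -0.20 in eggs.

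The comparison of eggs with FG follicles within a genotype asked which transcripts differ between both stages. The genes prdx4, gpx8 and prdx1 were far lower in eggs, gpx4b was lower by a factor of 6.18 in wild type and 4.26 in mutants, and sod1, prdx2 and gpx4a differed by amounts nearer to that of the median gene. In wild type, 7 of 9 tested members fell and none rose, where 60.8% of all genes fell, 22.1% rose and 82.9% passed in either direction. In mutants 7 of 9 fell, where 58.3% of all genes fell, 23.4% rose and 81.7% passed. The egg libraries through which gpx8 was picked are 1 side of both comparisons. For gpx8, 1 of the 7 in each count, they are a description only. The median gene differed by -0.85 in wild type and -0.79 in mutants, against -1.07 and -0.91 for the median member. With median-of-ratios scaling, which sets the bulk of genes equal, the median gene moved to -0.10 in wild type and -0.09 in mutants, so each change is to be set against that shift. Of all calls in wild type 26.7% were higher in eggs, and 47.4% were with that scaling.

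Far below the median gene lay prdx4, with 106 ± 8.83 FPKM in wild-type FG follicles (SD, n = 4) and 5.87 ± 2.73 FPKM in wild-type eggs (SD, n = 5), a log2 difference of -4.04 (SE 0.23, limma adjusted p = 7.86e-12). In mutants it was -3.99. The gene prdx1 fell from 19.4 ± 2.04 to 1.15 ± 0.342 FPKM in wild type, a log2 difference of -3.26, against -2.89 in mutants. For gpx4b the differences were -2.64 and -2.29. In wild type gpx8 fell from 7.38 ± 0.307 FPKM in FG follicles to 0.442 ± 0.156 FPKM in eggs. That was a ratio of 16.7 and a log2 difference of -2.54 (SE 0.18). In mutants it fell from 51.4 ± 8.06 to 7.53 ± 2.52 FPKM, a ratio of 6.83 and a log2 difference of -2.66. These 4 genes fell in each genotype under all 31 alternative settings. For gpx8 this is a description, since its egg values served the choice.

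Genes nearer to the median gene depended on the scaling. The log2 difference of sod1 was -0.94 in wild type and turned to 0.24 with median-of-ratios scaling, and that of prdx2 was -1.07 and turned to 0.10. That of gpx4a was -1.02 in wild type, -0.04 with median-of-ratios scaling and 0.25 with quantile normalization. In mutants its log2 difference of -0.42 (adjusted p = 0.0462) ended as a call in 13 of 31 alternative settings and turned in 2 more, 0.36 with median-of-ratios scaling and 0.73 with quantile normalization. The level of catalase did not pass between stages in wild type, with 119 ± 22.7 FPKM in FG follicles and 116 ± 33.7 FPKM in eggs (log2 -0.07, 95% interval -0.57 to 0.43, adjusted p = 0.792), but stood 1.11 higher in eggs on the log2 scale with median-of-ratios scaling (adjusted p = 0.00443). In mutants its log2 difference was -0.49 (adjusted p = 0.0657), and 0.54 with median-of-ratios scaling. It passed as lower in eggs in 5 of 31 alternative settings, at -1.0 with TPM (adjusted p = 0.000546), -1.02 with egg libraries 4 and 5 (0.00019), -0.65 with quantile normalization (0.0120), -0.57 without mutant egg library 1 (0.0440) and -0.60 without mutant egg library 3 (0.0306). In wild type it passed as lower with egg libraries 4 and 5, at -0.55 (adjusted p = 0.0124). The gene gpx1a stood at 1.32 FPKM in wild-type eggs and 1.07 FPKM in wild-type FG follicles and did not pass (log2 0.15, adjusted p = 0.437). It passed as higher in eggs with median-of-ratios scaling, at 0.78 (adjusted p = 0.00384), and with quantile normalization, at 1.15 (adjusted p = 0.00021). In mutants it was -0.16 (adjusted p = 0.421), and passed at -0.63 with TPM, at -0.45 with egg libraries 4 and 5 and, with the opposite sign, at 0.73 with quantile normalization.

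**Figure D4:**
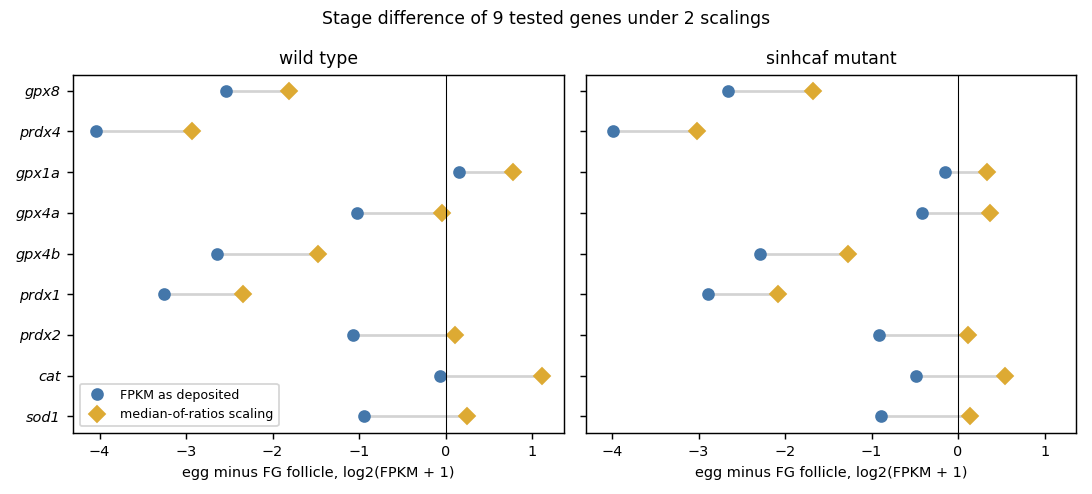
Difference between eggs and FG follicles in log2(FPKM + 1) (horizontal axis) for the 9 tested genes in wild type (left) and sinhcaf mutants (right), with FPKM as deposited (circles) and after median-of-ratios scaling (diamonds). The genes prdx4, prdx1, gpx4b and gpx8 lie below 0 with both scalings, while sod1 and prdx2 turn from below 0 to above it.

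The order of the 4 groups summed up how each gene behaved. For gpx8 it ran from mutant FG follicles over mutant eggs and wild-type FG follicles, which overlapped, to wild-type eggs. For prdx4, prdx1 and sod1 both FG follicle groups, which overlapped, stood above both egg groups, which also overlapped. For gpx4b wild-type FG follicles stood above mutant ones without overlap, and both above the egg groups. For gpx4a and prdx2 wild-type FG follicles stood above the rest, where each group overlapped with the next. No neighbouring groups were apart for cat, gpx1a or gpx7.

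By Pearson correlation of log2(FPKM + 1) over the 18 libraries, the 5 named genes most like gpx8 among the genes tested were zdhhc9 (r = 0.967), si:ch211-202f5.3 (0.965), pld3 (0.965), mtmr7a (0.959) and the gene with the identifier ENSDARG00000089139 (0.958). The libraries share stage and genotype, so these values describe a common pattern over 4 groups. Like gpx8, each had its highest mean in mutant FG follicles and its lowest in wild-type eggs. They were picked for likeness to gpx8 in these same libraries, so this order is not a separate result. The closest of them to gpx8 in the size of its genotype difference was mtmr7a. Its means were 3.42 ± 0.464 FPKM in wild-type and 16.8 ± 0.505 FPKM in mutant FG follicles (SD, n = 4 each).

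The neighbours of gpx8 on its chromosome were looked at for their own changes. Order was taken from the RefSeq annotation of the assembly GRCz12tu, and the 5 nearest tested protein-coding genes on either side were ggt1a, ggt5a, asphd2, mlec and unc119b, and anapc5, rnf34a, kdm2ba, orai1a and tbc1d10aa. None of these 10 passed in eggs (limma adjusted p from 0.105 to 0.997), where 15.1% of all genes passed. At an unadjusted p under 0.05 there were 2 of 10. In FG follicles 2 of 10 rose and none fell, where 10.1% of all genes rose and 23.5% passed. They were kdm2ba, whose mammalian homolog demethylates histone H3, from 0.864 ± 0.156 to 1.90 ± 0.373 FPKM, and mlec, a carbohydrate-binding protein gene of the endoplasmic reticulum, from 6.10 ± 1.23 to 9.26 ± 2.17 FPKM (SD, n = 4 each). The kdm2ba groups did not overlap at either stage, and its egg means were 0.0482 ± 0.0283 FPKM in wild type and 0.235 ± 0.109 FPKM in mutants. With those means, kdm2ba could meet the filter of 1 FPKM in 4 libraries only with the mutant FG follicle libraries, where it was highest. Its rise, 1 of the 2 counted above, is therefore a description. The mlec groups overlapped, and its call ended in 6 of 30 alternative settings, among them those without mutant FG follicle library 1, 2 or 3 or wild-type library 2 or 4 (adjusted p up to 0.0906). The others differed by -0.13 to 0.32 on the log2 scale and did not pass. Among them were ggt1a and ggt5a, genes of the gamma-glutamyltransferase family, whose enzymes break down extracellular glutathione. At an unadjusted p under 0.05 by limma, 4 of the 10 neighbours were higher in mutant FG follicles. These were kdm2ba, mlec, ggt5a (log2 0.27) and anapc5 (0.32), of which kdm2ba is a description. The share of all genes at an unadjusted p under 0.05 is not given here. It is at least the 23.5% that passed after adjustment, so nothing is read from this count. The gene sinhcaf itself lies on another chromosome.

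The wider redox system was covered by 9 lists, of which 126 genes beside the members were tested. In FG follicles 17 rose and 13 fell, which is 23.8% of them, against 23.5% of all genes. In eggs 13 rose and 9 fell, 17.5% against 15.1% of all genes. Counts for each list below are to be set against the shares of all genes by direction. In FG follicles 10.1% of all genes rose and 13.4% fell, and in eggs 7.35% rose and 7.71% fell. The median gene of the lists differed by 0.03 in FG follicles and 0.01 in eggs. Over the alternative settings the counts ran from 12 to 23 higher and 8 to 17 lower in FG follicles, and from 9 to 18 higher and 5 to 13 lower in eggs. Genes given below with a log2 difference only were named after their values were seen, and their calls were not followed through the alternative settings.

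Among 4 further glutathione peroxidases and peroxiredoxins, prdx6, for a peroxiredoxin that also acts on phospholipids, fell from 26.8 ± 4.30 to 13.6 ± 1.38 FPKM in FG follicles, and none rose. In eggs gpx1b rose from 14.7 ± 3.37 to 26.2 ± 5.19 FPKM and none fell, but 7 of 32 alternative settings ended the gpx1b call, among them leaving out library 2 of the mutant eggs or library 4 or 5 of the wild-type eggs (adjusted p up to 0.169). Of 3 rows for superoxide dismutases and their copper chaperone, 1 fell in FG follicles, a row of ccs, the chaperone, whose symbol stands on a pair of rows (log2 -0.52, limma adjusted p = 0.0450). The other ccs row went the other way and did not pass (log2 0.56, limma adjusted p = 0.128), so no direction is read for ccs. In eggs none of the 3 passed by limma, and 2 of 3 were at an unadjusted p under 0.05. There the ccs rows differed by -0.48 and 0.64 on the log2 scale.

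Of 14 thioredoxin and glutaredoxin genes, 3 rose and 3 fell in FG follicles. The gene txnl1, for a thioredoxin-like protein tied to the proteasome, fell at both stages, from 69.2 ± 7.25 to 30.1 ± 2.46 FPKM in FG follicles and from 151 ± 11.8 to 52.7 ± 9.01 FPKM in eggs. By contrast txndc17, for another thioredoxin-like protein, rose at both, from 36.4 ± 0.966 to 57.7 ± 6.94 FPKM in FG follicles and from 5.12 ± 0.743 to 10.2 ± 2.47 FPKM in eggs. In FG follicles srxn1, for the sulfiredoxin that revives overoxidized peroxiredoxins, rose from 1.12 ± 0.358 to 3.8 ± 1.62 FPKM, a call lost with a pseudocount of 0.1 (adjusted p = 0.105). There the splicing factor gene txnl4a, named for its thioredoxin fold, fell from 99.2 ± 6.96 to 72.0 ± 5.04 FPKM, a call lost with TPM and with median-of-ratios scaling. Beyond the naming rule, txnipa, for a thioredoxin-binding protein, rose by 1.33 on the log2 scale with overlap and the mitochondrial thioredoxin gene txn2 fell by 0.44. In eggs 1 of the 14 rose and 2 fell, the second being the reductase gene txnrd3 at -0.45 with overlap.

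Of 11 genes for the synthesis and recycling of glutathione, slc7a11, the cystine importer, rose in FG follicles from 2.44 ± 0.552 to 6.20 ± 3.14 FPKM and none fell, while 2 rose and 1 fell in eggs. These 3 overlapped between groups, idh1 at 0.72, cth at 0.57 and pgd at -0.92 on the log2 scale. Among 13 glutathione transferases 3 rose in FG follicles and none fell. They were mgst3b, at 0.53 on the log2 scale, mgst2, from 16.2 ± 1.09 to 39.9 ± 7.22 FPKM, and gstk1, from 1.41 ± 0.293 to 3.57 ± 1.34 FPKM. The gstk1 call ended in 8 of 30 alternative settings, among them those without mutant or wild-type FG follicle library 2 or 4 (adjusted p up to 0.114). In eggs gstr rose from 2.34 ± 1.01 to 11.2 ± 3.50 FPKM, gstp1 fell from 258 ± 39.9 to 122 ± 18.1 FPKM and gsta.1 from 1.43 ± 0.739 to 0.380 ± 0.202 FPKM, and the second to rise was gstk1, at 0.91 on the log2 scale with overlap. The gsta.1 call ended in egg libraries 1 to 3 alone (adjusted p = 0.197).

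Of 9 tested genes listed under the Nrf2 pathway, which switches on many antioxidant genes, 2 rose and 2 fell in FG follicles. The 9 leave out genes tied to this pathway that are counted in other lists. Of these, srxn1 and slc7a11 rose in FG follicles. On the log2 scale gclc (0.03), gclm (0.15), gsr (-0.31) and txnrd3 (-0.22) did not pass there. The haem oxygenase gene hmox2a rose from 0.467 ± 0.605 to 2.25 ± 0.820 FPKM and the autophagy receptor gene sqstm1 from 15.6 ± 2.43 to 24.5 ± 2.11 FPKM, the latter a call lost with a pseudocount of 0.1 (adjusted p = 0.0594). The wild-type mean of hmox2a lay under the 1 FPKM of the filter, so its entry to the test may rest on the mutant libraries, where it was high. Both biliverdin reductase genes fell, blvra from 16.5 ± 1.62 to 9.07 ± 0.862 FPKM and blvrb from 118 ± 3.05 to 74.8 ± 2.66 FPKM. None of the 9 passed in eggs by limma, and 0 of 9 were at an unadjusted p under 0.05.

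Of 33 genes for oxidative folding in the endoplasmic reticulum, the setting in which GPX8 works in mammals, 4 rose and 1 fell in FG follicles. The other 28 did not pass, where 10.1% of all genes rose, 13.4% fell and 23.5% passed in either direction. The one that fell was the chaperone gene hsp90b1, at -0.75 on the log2 scale with overlap. The gene tmx3b, of the disulfide isomerase family, rose from 8.97 ± 2.27 to 17.2 ± 1.40 FPKM, and sil1, a partner of the chaperone BiP, from 4.93 ± 0.244 to 6.75 ± 0.893 FPKM, a call that ended in 10 of 29 alternative settings, among them those without mutant FG follicle library 1, 3 or 4 or wild-type library 3 or 4 (adjusted p up to 0.483). Chosen after their values were seen, further genes of this list are named for their tie to GPX8 in mammals. They are the disulfide isomerase gene p4hb and the paralogs ero1b and ero1a, whose products feed oxidizing power to such isomerases. The level of p4hb was 41.7, 36.6, 11.5 and 37.3 FPKM in wild-type and 149, 101, 154 and 40.8 FPKM in mutant FG follicles. Mutant library 4 lay within the wild-type range, wild-type library 3 was the lowest, and without that one the adjusted p rose from 0.0133 to 0.0559. The level of ero1b was 2.97 ± 0.349 and 5.15 ± 1.67 FPKM with overlap (adjusted p = 0.0280), a call that ended in 7 of 30 alternative settings, among them those without mutant FG follicle library 1, 2 or 3 or wild-type library 2 or 3 (adjusted p up to 0.103). The paralog ero1a was more abundant than ero1b there, with means of 9.74 FPKM in wild-type and 9.22 FPKM in mutant FG follicles. The ero1a groups overlapped, and the gene did not pass (log2 -0.07, limma adjusted p = 0.719). In eggs p4hb stood at 33.4 ± 2.65 FPKM in wild type and 66.9 ± 43.3 FPKM in mutants and did not pass (adjusted p = 0.286). There 3 genes of the list rose and 3 fell, with sumf1, for an enzyme that activates sulfatases, from 2.30 ± 1.83 to 6.89 ± 0.563 FPKM, and the lectin chaperone genes calr, from 3.23 ± 1.38 to 1.1 ± 0.373 FPKM, and canx, from 45.2 ± 5.19 to 33.7 ± 2.48 FPKM. The other 3, pdia5 at 0.86, qsox2 at 0.74 and hsp90b1 at -0.53 on the log2 scale, overlapped between groups. The sumf1 call ended in egg libraries 1 to 3 alone (adjusted p = 0.0709).

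**Figure D5:**
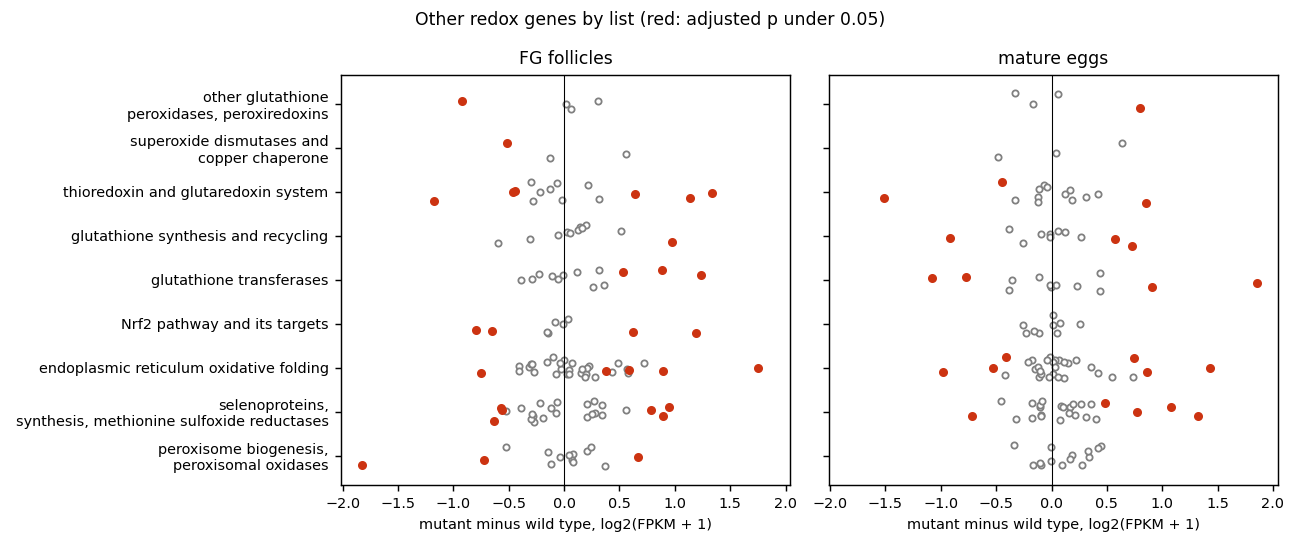
Difference between mutant and wild type in log2(FPKM + 1) (horizontal axis) for the tested genes of 9 redox lists (1 line each; the members are left out) in FG follicles and eggs; each point is a gene and red marks an adjusted p under 0.05. Passing genes lie on both sides of 0, 17 higher and 13 lower in FG follicles and 13 higher and 9 lower in eggs.

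Of 25 genes for selenoproteins, their synthesis and the repair of oxidized methionine, 3 rose and 3 fell in FG follicles, and 4 rose and 1 fell in eggs. The selenoprotein gene selenow2a rose from 4.18 ± 0.787 to 8.57 ± 1.06 FPKM and the methionine sulfoxide reductase gene msrb1b from 23.8 ± 4.89 to 41.4 ± 3.71 FPKM in FG follicles. There eefsec, whose product delivers selenocysteine to the ribosome, fell from 6.18 ± 1.02 to 3.84 ± 0.701 FPKM, a call lost with TPM, with TPM without mitochondrial genes and with a pseudocount of 0.1. The fall of msra, from 35.3 ± 0.609 to 22.8 ± 4.77 FPKM, was lost in 13 of 30 alternative settings, among them those without mutant FG follicle library 2 or 4 or any 1 of the 4 wild-type libraries (adjusted p up to 0.149). The others were selenop, at 0.95 on the log2 scale with overlap, and selenok, at -0.56. In eggs selenoh rose from 6.22 ± 0.867 to 17.8 ± 6.59 FPKM and msrb1a from 6.68 ± 0.735 to 15.3 ± 1.54 FPKM. There msrb1b at 0.77 and selenow2a at 0.48 on the log2 scale also rose, and selenot2 at -0.72 fell with overlap. Of 14 genes of the peroxisome, where catalase works, 1 rose and 2 fell in FG follicles and none passed in eggs by limma, with 1 of 14 at an unadjusted p under 0.05. Those of FG follicles were pex26, from 3.94 ± 0.925 to 6.80 ± 1.18 FPKM, a call lost with a pseudocount of 0.1 and without mutant or wild-type FG follicle library 4 (adjusted p up to 0.0959), and acox3, an oxidase that makes peroxide, from 6.08 ± 1.45 to 3.22 ± 0.468 FPKM, lost with median-of-ratios scaling and quantile normalization. The third, pex14, for a docking protein of peroxisomal import, is named outside the rule for its size, after its values were seen. It reached the 1 FPKM of the filter only in the wild-type FG follicle libraries and in mutant FG follicle library 4. It thus met the filter through the group where it was high, and its fall, 1 of the 2 counted above, is a description. It stood at 8.23, 4.53, 5.75 and 8.13 FPKM in wild-type and at 0.509, 0.704, 0.374 and 4.6 FPKM in mutant FG follicles. Mutant library 4 lay within the wild-type range.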

How the data were processed

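The authors deposited FPKM values for 25432 Ensembl genes in 18 library columns, all of which were used. Trimmomatic, HISAT2, Cufflinks and HTSeq are named with build GRCz11, per the submitters' processing notes. Versions, roles, annotation, strand use and the handling of shared reads are not given in the sources used here. Samples were grouped by stage and genotype from the labels. Each library stands for 1 female, so p-values measure the spread between these fish.

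Values entered as log2(FPKM + 1). The 10547 genes that reached an FPKM of 1 in 4 or more libraries were kept, and limma 3.58.1 fitted 1 mean for each of the 4 groups (eBayes with trend, 14 residual degrees of freedom) in R 4.3.3 with the package data.table (version 1.17.8). The p-values were adjusted by Benjamini-Hochberg over all genes tested. The fit was tested on simulated data first. Members, lists and tests were chosen with earlier results of these data known, and the lists of the wider redox system hold no members. Genes named from a list are up to 2 rises and 2 falls of largest size per genotype contrast, with groups that do not overlap and a symbol that belongs to 1 row. For gpx8 the 5 genes with a symbol most correlated with it and 5 neighbours on either side are named too. Where list symbols were missing, RefSeq synonyms of GRCz12tu were used, and that annotation gives prdx1 among the synonyms of prdx2, so the symbols of the deposited file were kept for both. No sequences or coordinates of the table's build were used.

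Alternatives were other pseudocounts, filters and scalings, no trend, 2 groups only, each library left out and replicate blocks. Same-numbered wild-type and mutant egg libraries deviated together (r from 0.112 to 0.447 over 5 pairs, each above 0.1). In 3 of 5 pairs, however, a library of another number correlated better (0.268 against 0.121, 0.150 against 0.112 and 0.344 against 0.239). In FG follicles r ran from -0.118 to -0.0230, so those numbers do not pair libraries.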

Additional observations from a re-analysis of the deposited data

Results flagged for a closer look

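A library far from the others of its group was looked for in 39 sets of values (10 genes in 4 groups, of which 1 set was all at 0), by the gap to its nearest neighbour over the whole range. About 1 in 20 such sets stands out by chance, and 5 did. The sod1 level of wild-type egg library 5 was 310.2 FPKM, where the next was 207 FPKM. The prdx2 level of mutant FG follicle library 2 was 58.4 FPKM, below 80.8 FPKM in the next, and the prdx4 level of wild-type FG follicle library 1 was 93.2 FPKM, below 109 FPKM. The gene gpx7 was at 0.284 FPKM in mutant egg library 3 and listed at 0 in the other mutant eggs, and it was listed at 0 in mutant FG follicle library 1, with at most 0.0710 FPKM in the others. Without mutant FG follicle library 2 the prdx2 difference in FG follicles was -0.57 (limma adjusted p = 0.0396), against -0.70 with it.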

How the results depend on the processing

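In FG follicles the calls of gpx8 and gpx4a held in all 30 alternative settings and that of prdx2 in 29, and 3 members were called whichever library was left out. Depth is unknown, so no limit from counting error can be given. Settings with egg libraries 1 to 3, egg libraries 4 and 5 and quantile normalization were chosen after the data had been seen. The causes of the changes below were not tested.

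The 2475 genes called in FG follicles became 3753 with no filter and 1608 with the filter of 9 libraries. Of the 2475 calls 42.9% were higher, against 59.9% with TPM. In eggs 48.8% of 1588 calls were higher, against 38.6% with median-of-ratios scaling, 65.3% with TPM without mitochondrial genes and 34.4% with TPM. In wild type 26.7% of stage calls were higher in eggs, against 47.4% with median-of-ratios scaling and 51.2% with quantile normalization. The 733 genes whose genotype effect differed between stages became 372 with a pseudocount of 0.1, 381 with the filter of 9 libraries, 469 with TPM without mitochondrial genes, 473 with TPM and 483 with egg libraries 4 and 5. Of the members, 1 in place of 2 was past the threshold in eggs with no filter, with 2 groups only, with egg libraries 1 to 3 and with quantile normalization, and 1 to 3 with 1 library left out. With quantile normalization 1 member in place of 0 differed between stages in its genotype effect, gpx8 at -0.85, which remains a description. In the mutant stage comparison 4 members in place of 7 were called with median-of-ratios scaling, and 6 to 8 with 1 library left out.

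Signs turned as follows on the log2 scale. In FG follicles sod1 turned to 0.0099 with TPM without mitochondrial genes, 0.089 with TPM and 0.0084 with quantile normalization, and gpx1a to 0.016 with TPM. With 1 library left out gpx1a ran from -0.13 to 0.020 and cat from -0.10 to 0.12. In wild-type eggs against FG follicles, median-of-ratios scaling gave 0.10 for prdx2, 0.24 for sod1 and 1.11 for cat, and cat was 0.066 with TPM without mitochondrial genes, 0.25 with egg libraries 1 to 3 and from -0.22 to 0.068 with 1 library left out. There gpx4a was 0.25 with quantile normalization. In mutants median-of-ratios scaling gave 0.33 for gpx1a, 0.36 for gpx4a, 0.11 for prdx2, 0.54 for cat and 0.14 for sod1. Quantile normalization gave 0.73 for both gpx1a and gpx4a, and egg libraries 1 to 3 gave 0.037 for gpx1a. The genotype effect of gpx8 in eggs minus that in FG follicles, -0.11, became 1.02 and 0.34 with pseudocounts of 0.1 and 0.5, 0.13 with median-of-ratios scaling, 0.73 with TPM without mitochondrial genes and 0.23 with TPM, and with 1 library left out it ran from -0.23 to 0.024. That of prdx4 became -0.088 after median-of-ratios scaling, -0.20 as TPM, -0.31 with egg libraries 4 and 5 and -0.17 with quantile normalization, and ran from -0.11 to 0.25 with 1 library left out. That of prdx2 became -0.084 with TPM and -0.10 with egg libraries 4 and 5, and that of sod1 -0.10 after median-of-ratios scaling, -0.20 as TPM and -0.49 with egg libraries 4 and 5, with a range of -0.020 to 0.19 with 1 library left out.

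With the replicate number as a block, 1721 genes were called in eggs, 2546 in FG follicles, 747 for the difference between both effects, and 8813 and 8701 between stages in wild type and mutants. Nested in stage, the block gave 1948, 2772 and 856. The counts of members called were the same as without a replicate block in each comparison, and cat in wild type turned to 0.054 between stages.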
